A study of Homo sapiens with 12 samples.

Results

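The replication-dependent cluster histone genes encode the core histones H2A, H2B, H3 and H4 and the linker histone H1 of newly made chromatin. Here they are the probe sets paired with 1 gene whose current symbol is H1-1 to H1-6, or H2AC, H2BC, H3C or H4C followed by a number and an optional L, names that replaced the older HIST1H to HIST4H symbols. The rule found 49 probe sets for 43 genes, among 54613 probe sets and 19775 named genes on the array. By class they comprise 7 probe sets of H1, 10 of H2A, 15 of H2B, 8 of H3 and 9 of H4. The RefSeq gene table holds 70 genes with such symbols, so many of them have no probe set of their own here. A further 20 probe sets are paired with several of these genes at once and are described apart, because no single gene can be named for them.

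The cells are INA-6, an established human myeloma line that needs interleukin-6 to grow. All groups shared one medium, RPMI1640 with 10% fetal calf serum, antibiotics and 2 ng/ml of this cytokine, per the labels' protocols, and 300000 cells each received the solvent DMSO, SB590885, an inhibitor of Raf kinases labelled as acting on B-Raf, or PD325901, an inhibitor of MEK. Raf phosphorylates MEK and MEK phosphorylates ERK, so the compounds act at neighbouring steps of one cascade. Each of the 3 groups has 4 arrays, called biological replicates in the design text. Doses and treatment times are not stated in the labels, and INA-6 is 1 line, so the values describe these treatments in these cells. The values are RMA log2 expression per probe set, and 1 unit is a doubling of the signal. A second label numbers replicates 3 and 4 of every group as 1 and 2 again and adds an R, without saying what it means. Whether they repeat replicates 1 and 2 in some way is not stated. The tests treat the 4 arrays of a group as separate replicates.

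Most of these genes lie in clusters on chromosome 6 and are transcribed when DNA replicates in S phase, under the coactivator NPAT. Their mRNAs are unusual in that they end in a stem-loop, bound by the protein SLBP, rather than in a poly(A) tail. Some members also give polyadenylated transcripts, mostly in cells that have stopped dividing. The labelling kit used here copies RNA from an oligo(dT) primer, which anneals to poly(A), so the signal of a histone probe set need not follow the total histone mRNA of the cell. No measurement separates stem-loop from polyadenylated forms in these data, and which form a signal came from was not tested.

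The promoters of 6 genes that rose with SB590885 are shown, because H2A and H2B genes share sequence elements upstream of their start sites, together with that of H2BC13, an H2B gene whose level did not pass the test, chosen for contrast after its values were seen. They are the 200 bases before the transcription start, 5′ to 3′ on the strand of the gene, from RefSeq on GRCh38.p14. Capitals mark 4 motifs on either strand: the TATA element as TATAAA, the CCAAT element, the octamer of the factors OCT1 and OCT2 as ATTTGCAT, and the element of H1 promoters as AAACACA. On the opposite strand the CCAAT element reads as ATTGG, and the octamer is then written ATGCAAAT.
H2BC12: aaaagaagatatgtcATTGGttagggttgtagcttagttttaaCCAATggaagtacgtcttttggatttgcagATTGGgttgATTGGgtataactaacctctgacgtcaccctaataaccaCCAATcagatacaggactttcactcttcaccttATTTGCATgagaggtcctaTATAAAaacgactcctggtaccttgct
H2AC6: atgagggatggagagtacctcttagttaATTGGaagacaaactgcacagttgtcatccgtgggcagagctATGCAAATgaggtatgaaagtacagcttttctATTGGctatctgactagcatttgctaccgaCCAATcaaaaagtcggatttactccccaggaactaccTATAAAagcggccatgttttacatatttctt
H2AC8: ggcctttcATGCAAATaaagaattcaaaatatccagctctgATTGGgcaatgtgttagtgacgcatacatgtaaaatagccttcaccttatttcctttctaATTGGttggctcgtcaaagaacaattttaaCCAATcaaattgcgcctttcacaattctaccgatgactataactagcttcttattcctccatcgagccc
H2BC6: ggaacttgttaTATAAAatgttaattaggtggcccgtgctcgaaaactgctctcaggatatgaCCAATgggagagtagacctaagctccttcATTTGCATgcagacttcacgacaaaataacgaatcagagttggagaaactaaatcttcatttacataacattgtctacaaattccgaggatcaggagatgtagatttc
H2BC11: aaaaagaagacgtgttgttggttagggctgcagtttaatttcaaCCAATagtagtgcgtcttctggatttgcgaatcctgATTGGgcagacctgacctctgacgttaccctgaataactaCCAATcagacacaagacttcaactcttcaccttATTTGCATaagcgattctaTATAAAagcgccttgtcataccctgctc
H1-2: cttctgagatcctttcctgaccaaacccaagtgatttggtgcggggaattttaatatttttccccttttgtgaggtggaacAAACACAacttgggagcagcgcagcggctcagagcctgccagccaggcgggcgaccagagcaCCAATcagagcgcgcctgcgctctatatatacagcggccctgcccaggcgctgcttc
H2BC13: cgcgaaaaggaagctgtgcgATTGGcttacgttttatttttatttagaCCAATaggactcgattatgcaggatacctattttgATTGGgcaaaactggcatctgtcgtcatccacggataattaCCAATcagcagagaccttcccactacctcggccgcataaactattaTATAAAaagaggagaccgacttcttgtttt
The windows lie on chromosome 6, at chr6:27146859-27147058 for H2BC12 (minus strand), chr6:26123972-26124171 for H2AC6 (plus strand), chr6:26216721-26216920 for H2AC8 (plus strand), chr6:26183561-26183760 for H2BC6 (plus strand), chr6:27132796-27132995 for H2BC11 (minus strand), chr6:26056471-26056670 for H1-2 (minus strand) and chr6:27807930-27808129 for H2BC13 (minus strand). The octamer stands on the gene's own strand in H2BC12, H2BC11 and H2BC6 and on the opposite strand in H2AC6 and H2AC8. H2BC12 and H2BC11, both on the minus strand, carry it shortly upstream of TATAAA, with its first base 46 bases before the start in H2BC12 and 47 in H2BC11. The H2BC13 window has TATAAA at the matching place, its first base 30 bases before the start, and the letters of the octamer are not in it. H2BC13 does not stand for the other H2B genes that did not pass. Over the longer windows counted below, the octamer is in 3 of 5 measured H2B genes that did not pass and 7 of 8 that rose.

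With SB590885, 20 of the 49 probe sets were higher than with DMSO and 0 were lower, against 1.01% of all 54613 probe sets higher and 0.947% lower (limma, Benjamini-Hochberg adjusted p under 0.05). At an unadjusted p under 0.05 in the same fit, 27 were higher and 0 lower, against 11.7% of all probe sets in either direction. The 20 probe sets stand for 19 of the 43 genes. They included H2B genes such as H2BC12, H2BC6 and H2BC9, the H2A genes H2AC6 and H2AC8, and the linker histone gene H1-2. The median difference over the 49 was 0.27 on the log2 scale, with a range of -0.08 to 2.20, against a median of 0.00 over all probe sets, and 11 probe sets rose by 1 or more. All 4 SB590885 arrays lay above all 4 DMSO arrays for 24 of the 49, against 3.84% of all probe sets, and these 24 include the 20 that passed. With the replicate number as a block in the fit, 26 were higher, against 6.56% of all probe sets. In RNA from a culture, more cells that express a gene and more RNA per cell cannot be told apart. The count moved with single arrays: 12 of the 49 passed without DMSO replicate 1, 12 without DMSO replicate 2, 13 without DMSO replicate 4 and 13 without SB590885 replicate 2, when 204, 286, 298 and 211 of all probe sets were higher.

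The classes differed in how many of their probe sets passed. Of the H2B probe sets 10 of 15 were higher with SB590885, with a median difference of 1.26. Of the H2A probe sets 5 of 10 were higher, with a median of 0.37. Among the other classes 2 of 7 H1 probe sets (median 0.11), 2 of 8 H3 probe sets (median 0.10) and 1 of 9 H4 probe sets (median 0.15) were higher. Of the probe sets of H2A and H2B, which pair as a dimer in the nucleosome, 15 of 25 were higher. Of those of H3 and H4, which form the tetramer of the nucleosome, 3 of 17 were higher. The gap was narrower with the replicate block, at 17 of 25 and 7 of 17, against 6.56% of all probe sets. By class the block gave 11 of 15 for H2B, 6 of 10 for H2A, 2 of 7 for H1, 3 of 8 for H3 and 4 of 9 for H4. Whether the classes differ from each other was not tested, because near-identical genes within a class are not independent.

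**Figure D1:**
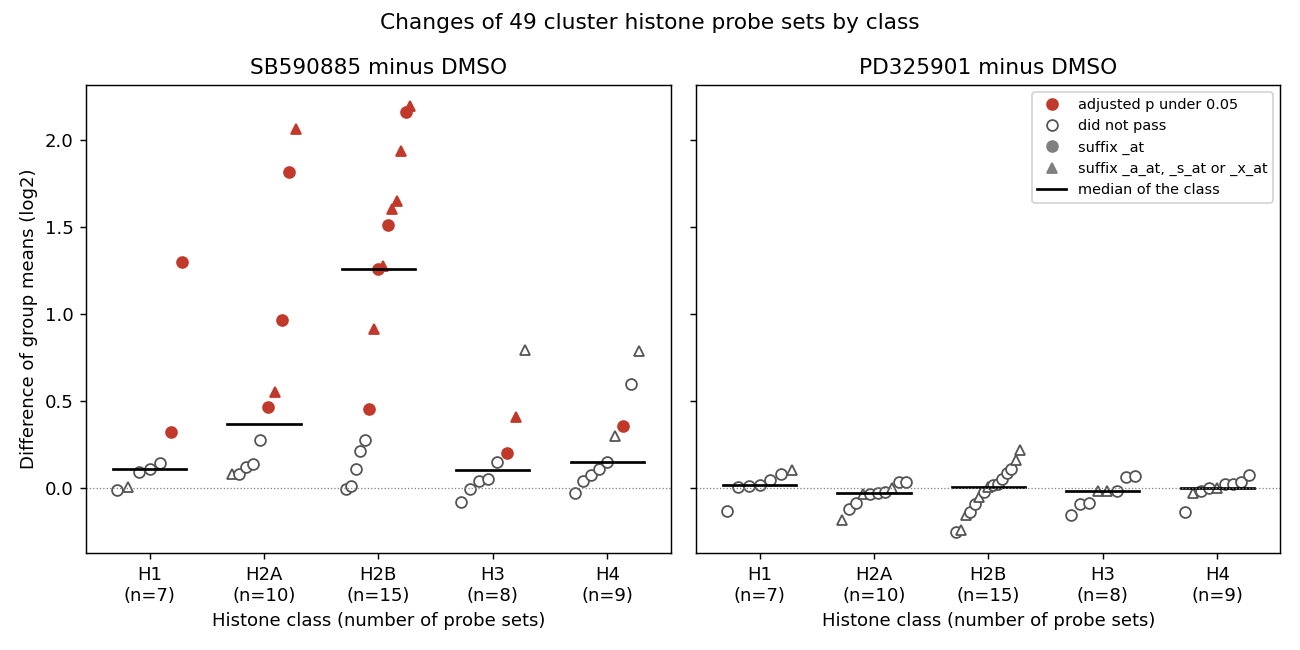
Difference of group means (log2, y axis) of the 49 cluster histone probe sets by histone class (x axis), for SB590885 minus DMSO (left) and PD325901 minus DMSO (right). Filled points passed the adjusted p of 0.05, circles are probe sets named _at, triangles those named as shared, and bars are class medians; H2B reaches a median of 1.26 with SB590885 and no point is filled with PD325901.

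Among H2B genes, H2BC12 had the largest difference of any probe set named _at, the ending meant for 1 transcript. H2BC12 read 11.16, 11.09, 10.93 and 10.97 with DMSO, 13.48, 13.51, 13.04 and 12.76 with SB590885, and 11.00, 11.02, 10.34 and 10.77 with PD325901. The SB590885 arrays all lay above the DMSO arrays, by 2.16 (SE 0.18, 4.47-fold, adjusted p = 0.00026), and the PD325901 arrays lay around or below DMSO. H2BC12L read 9.89, 9.79, 9.77 and 9.69 with DMSO, 12.48, 12.40, 11.67 and 11.37 with SB590885, and 9.72, 9.64, 9.33 and 9.47 with PD325901. H2BC12L, whose symbol marks it as a gene like H2BC12, thus differed by 2.20 (SE 0.21, 4.58-fold, adjusted p = 0.00061), but the name of its probe set says that it can also bind other transcripts. H2BC6 read 9.35, 9.25, 9.22 and 9.23 with DMSO, 11.49, 11.56, 11.07 and 10.68 with SB590885, and 9.36, 9.19, 9.08 and 9.23 with PD325901. The difference of H2BC6 was 1.94 (SE 0.16, 3.83-fold, adjusted p = 0.00026), with its lowest SB590885 array more than 1 unit above its highest DMSO array.

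H2BC9 and both probe sets of H2BC5 rose in the same way. H2BC9 read 8.45, 8.29, 8.37 and 8.24 with DMSO, 10.33, 10.21, 9.70 and 9.53 with SB590885, and 8.30, 8.30, 8.10 and 8.04 with PD325901. Its groups did not overlap and differed by 1.60 (SE 0.15, 3.04-fold, adjusted p = 0.00061). H2BC5, read by 209911_x_at, read 8.17, 8.12, 8.11 and 7.94 with DMSO, 10.13, 10.03, 9.92 and 8.86 with SB590885, and 8.39, 8.45, 8.03 and 8.11 with PD325901. The difference was 1.65 (SE 0.23, 3.14-fold, adjusted p = 0.00492), and SB590885 replicate 4 stood about 1 unit below its group while staying above every DMSO array. The other H2BC5 probe set, 222067_x_at, read 8.75, 8.83, 8.82 and 8.76 with DMSO, 10.32, 10.41, 9.98 and 9.56 with SB590885, and 8.89, 8.91, 8.79 and 8.58 with PD325901. Here the difference was 1.28 (SE 0.15, 2.43-fold, adjusted p = 0.00235), so the 2 probe sets of H2BC5 moved in one direction.

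With DMSO, H2BC11 and H2BC4 were low, near the median of all values of 6.92, and both were clearly raised with SB590885. H2BC11 read 6.98, 6.89, 6.92 and 7.02 with DMSO, 9.28, 8.99, 7.86 and 7.74 with SB590885, and 6.94, 6.93, 6.72 and 6.66 with PD325901. The difference was 1.51 (SE 0.28, 2.85-fold, adjusted p = 0.0203), and it was carried unequally: replicates 1 and 2 of SB590885 stood more than 1 unit above replicates 3 and 4. Of the 12 largest differences, this is the one whose call was lost when single arrays were left out: its adjusted p became 0.0645, 0.0605, 0.0569 and 0.0512 without DMSO replicates 1 to 4 in turn and 0.0672 without SB590885 replicate 2. H2BC4 read 7.10, 6.94, 6.93 and 6.80 with DMSO, 8.62, 8.57, 7.72 and 7.90 with SB590885, and 7.20, 7.11, 6.87 and 6.93 with PD325901. The groups did not overlap and differed by 1.26 (SE 0.18, 2.4-fold, adjusted p = 0.00587), again more in replicates 1 and 2.

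The remaining H2B probe sets had smaller differences. H2BC21, a member of the smaller cluster on chromosome 1, rose by 0.91 (SE 0.19, 1.88-fold, adjusted p = 0.0347). H2BC3 rose by 0.45 (SE 0.06, 1.37-fold, adjusted p = 0.00476), a small change with tight groups, whose DMSO arrays lay between 6.67 and 6.90 and whose SB590885 arrays lay between 7.16 and 7.37. The other 5 H2B probe sets did not pass: H2BC17 differed by 0.27 with groups that did not overlap (adjusted p = 0.117, and 0.0101 with the replicate number as a block), H2BC14 by 0.21, H2BC15 by 0.11, H2BC13 by 0.01 and H2BC1, a gene used mainly in testis, by -0.01. H2BC13 read 6.77 ± 0.09 with DMSO and 6.78 ± 0.06 with SB590885 (SD, n = 4 each), and its 95% confidence interval for the difference runs from -0.11 to 0.13.

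In the H2A class, H2AC6 and H2AC8 led. H2AC6 read 9.67, 9.50, 9.20 and 9.51 with DMSO, 11.90, 11.97, 11.34 and 10.95 with SB590885, and 9.61, 9.51, 8.94 and 9.09 with PD325901. The lowest SB590885 array stood more than 1 unit above the highest DMSO array, and the difference was 2.07 (SE 0.22, 4.19-fold, adjusted p = 0.0012). H2AC8 read 8.14, 8.02, 7.99 and 8.01 with DMSO, 10.42, 10.02, 9.48 and 9.53 with SB590885, and 8.09, 7.92, 7.74 and 7.93 with PD325901. Its difference was 1.82 (SE 0.17, 3.53-fold, adjusted p = 0.00061), with no overlap of the groups. H2AC25, read by 221582_at, read 8.41, 8.51, 8.32 and 8.41 with DMSO, 9.69, 9.78, 9.05 and 9.00 with SB590885, and 8.50, 8.56, 8.36 and 8.35 with PD325901. That is a difference of 0.97 (SE 0.16, 1.95-fold, adjusted p = 0.00989). The second probe set of H2AC25, 231681_x_at, read 6.64 ± 0.08 with DMSO and 6.72 ± 0.06 with SB590885 (SD, n = 4 each, adjusted p = 0.721). It is dim, below the median of all values of 6.92, so only the brighter of the 2 probe sets showed the rise.

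H2AC14 rose by 0.55 (SE 0.11, 1.47-fold, adjusted p = 0.0312) and H2AC17 by 0.47 (SE 0.09, 1.38-fold, adjusted p = 0.0187), both without overlap of the groups. The 5 H2A probe sets that did not pass had differences from 0.08 to 0.27. Of these, H2AC15 has 2 probe sets, at 0.27 (239041_at, adjusted p = 0.104, and 0.0226 with the replicate block) and 0.08 (214644_at, adjusted p = 0.638). H2AC16 differed by 0.14 and H2AC4 by 0.12.

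In the H1 class, H1-2, which encodes a linker histone of most cells, had the one large difference. H1-2 read 11.10, 11.25, 10.90 and 11.06 with DMSO, 12.70, 12.69, 12.04 and 12.06 with SB590885, and 11.14, 11.15, 10.58 and 10.89 with PD325901. The difference was 1.30 (SE 0.17, 2.46-fold, adjusted p = 0.00433), and replicates 1 and 2 of SB590885 stood above replicates 3 and 4. H1-4 rose by 0.32 (SE 0.07, 1.25-fold, adjusted p = 0.0425). The other H1 probe sets did not pass: H1-5 differed by 0.14, H1-3 by 0.11, H1-1 by -0.01 and the testis linker histone gene H1-6 by 0.09 and 0.01 in its 2 probe sets.

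Genes of H3 and H4 moved less. H3C8 read 7.72, 7.69, 7.84 and 7.77 with DMSO, 8.31, 8.29, 8.13 and 7.93 with SB590885, and 7.76, 7.74, 7.79 and 7.66 with PD325901. Its groups did not overlap and differed by 0.41 (SE 0.08, 1.33-fold, adjusted p = 0.0201). H3C1 rose by 0.20 (SE 0.04, 1.15-fold, adjusted p = 0.0318), with DMSO arrays between 6.59 and 6.75 and SB590885 arrays between 6.80 and 6.88. H3C2 read 7.08, 7.21, 7.16 and 7.17 with DMSO, 8.34, 8.56, 7.61 and 7.30 with SB590885, and 7.08, 7.21, 7.15 and 7.12 with PD325901. H3C2 had a larger difference than either, 0.80, and no overlap, but its SB590885 arrays were spread over more than 1 unit and it did not pass (adjusted p = 0.0926, and 0.00374 with the replicate block). The other 5 H3 probe sets lay between -0.08 (H3C6, 236278_at) and 0.15 (H3C3).

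H4C5 was the H4 gene that passed, rising by 0.36 (SE 0.07, 1.28-fold, adjusted p = 0.0259). H4C11 read 8.55, 8.57, 8.81 and 8.59 with DMSO, 9.14, 9.13, 8.83 and 8.61 with SB590885, and 8.60, 8.73, 8.66 and 8.51 with PD325901. H4C11 did not pass, at 0.30 (adjusted p = 0.26, and 0.031 with the replicate block): SB590885 replicate 4 fell within the range of DMSO, whose replicate 3 was high, and SB590885 replicate 3 stood just above it. H4C8 has 2 probe sets, and neither passed. The first, 208180_s_at, read 7.26 ± 0.11 with DMSO and 8.05 ± 0.56 with SB590885 (SD, n = 4 each; difference 0.79, adjusted p = 0.1, and 0.00056 with the replicate block). The second, 232035_at, read 7.67 ± 0.17 and 8.26 ± 0.65 (difference 0.59, adjusted p = 0.359, and 0.00621 with the replicate block). The remaining 5 H4 probe sets lay between -0.03 (H4C7) and 0.15 (H4C9).

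**Figure D2:**
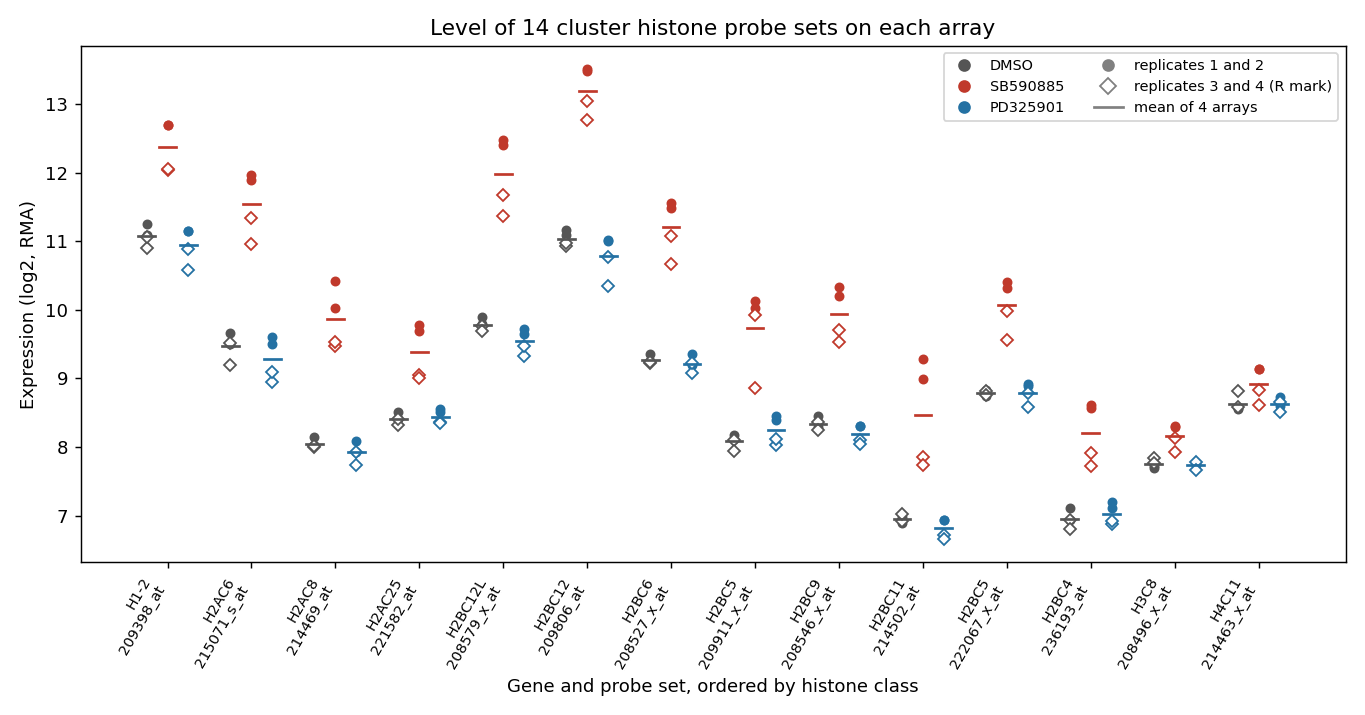
Expression (log2, y axis) on each of the 12 arrays for 14 cluster histone probe sets (x axis), the 12 with the largest differences and the ones with the highest mean among H3 and H4. Colours are treatments, diamonds are replicates 3 and 4, which carry the R mark, and bars are means of 4 arrays; every SB590885 array lies above every DMSO array except in H4C11.

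Affymetrix names tell whether a probe set is meant to bind 1 transcript (_at) or can bind several (_a_at, _s_at or _x_at). This matters for histone genes because their coding sequences are nearly alike. The name is not a full guide here. Some of the probe sets paired with several histone genes also end in _at, among them ones paired with 14 genes. Of the 35 probe sets named _at, 11 were higher with SB590885, with a median difference of 0.14. Of the 14 with a shared name, 9 were higher, with a median of 0.86: 7 of 9 named _x_at, 2 of 4 named _s_at and 0 of 1 named _a_at. Within H2B alone, 4 of 9 named _at were higher (median 0.27) and 6 of 6 with a shared name (median 1.63). H2BC12, H2AC8, H2BC11, H1-2 and H2BC4, all named _at, rose by 1 or more, so large differences were not limited to shared names. A probe set named _s_at or _x_at can report the rise of a near copy of its gene, and how far that applies to each was not tested.

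The 20 probe sets paired with several cluster histone genes moved in the same direction. Of these, 13 were higher with SB590885 and 0 lower, with a median difference of 0.94. All 5 that pair with H2B genes were higher (median 1.55), as were 4 of 5 for H2A genes and both that pair with H2A and H3 genes. Of those for H4 genes 2 of 6 were higher, and of those for H3 genes 0 of 2, though the groups did not overlap in either of these 2. With the replicate block 4 of 6 for H4 genes and 2 of 2 for H3 genes were higher. Over all 20 the block gave 17, against 6.56% of all probe sets. They read many of the genes without a probe set of their own, but not one by one.

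The differences were seen mostly in probe sets with a clear signal. Of the 12 probe sets at or above 8 with DMSO, 11 rose, with a median difference of 1.63, and H4C11 was the exception. Of the 37 below 8, 9 rose, with a median of 0.14. The median of all values on the 12 arrays was 6.92, and 33 of the 49 probe sets stood at or above it with DMSO. Of the 16 below it, 2 rose, H2BC3 and H3C1, with a median of 0.06. The limit of 8 was set after the values were seen, signal depends on the probes as well as on the RNA, and the DMSO mean enters both quantities, so this is a description; how far background signal hides differences in the dim probe sets was not tested.

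**Figure D3:**
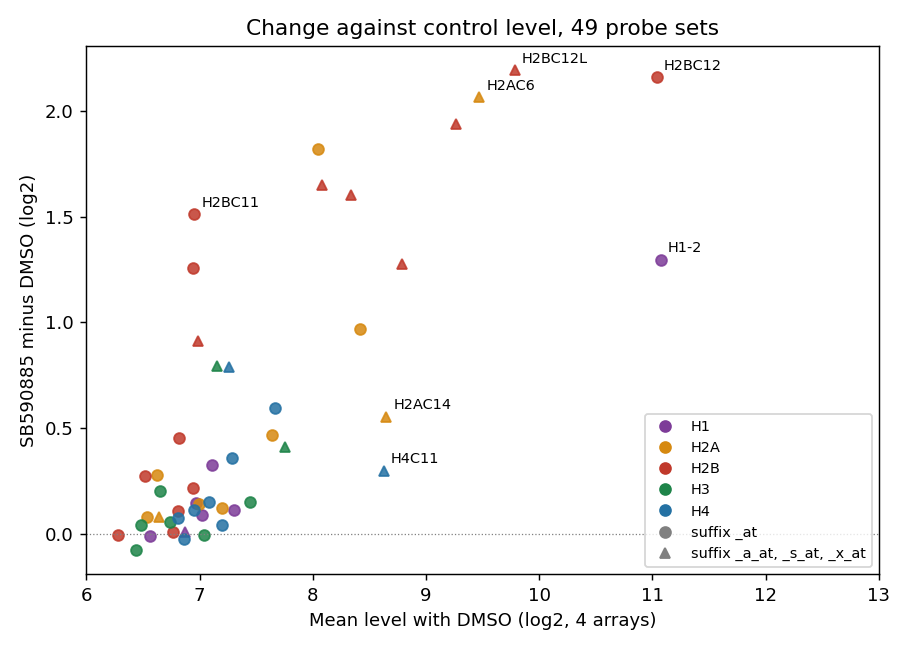
Difference between SB590885 and DMSO (log2, y axis) against the mean level with DMSO (log2, x axis) for the 49 cluster histone probe sets, coloured by class, with triangles for shared names. Nearly all probe sets right of 8 rose, those left of it mostly lie near 0, and H2BC11 and H2BC4 stand out at about 7.

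With PD325901, none of the 49 probe sets passed the test against DMSO. In the limma fit 0 were higher and 0 lower, against 0.0549% and 0.291% of all probe sets, and 0 had an unadjusted p under 0.05. The 2 groups of arrays overlapped in all 49, whereas 1.37% of all probe sets had every PD325901 array higher and 2.16% every one lower. With the replicate block the counts were also 0, when 1.2% of all probe sets were higher and 3.61% lower. Differences ran from -0.25 (H2BC12) to 0.22 (H2BC21), with a median of -0.00. Between arrays of the same replicate number, 2 of the 49 were higher with PD325901 in all 4 pairs and 8 lower, against 10.9% and 15.2% of all probe sets. H2BC21 was higher in each pair, by 0.25, 0.18, 0.25 and 0.19 (adjusted p = 0.447 with the block), and H2BC12 lower, with -0.15, -0.07, -0.59 and -0.20 (adjusted p = 0.179 with the block). The 95% confidence intervals set the size that could have been missed: over the 49 they lie between -0.76 (H2BC11) and 0.65 (H2BC5). For H2BC12 the interval runs from -0.64 to 0.13, for H2AC6 from -0.66 to 0.29, for H2AC8 from -0.50 to 0.25 and for H1-2 from -0.51 to 0.24. Of the 20 probe sets of several histone genes 0 passed.

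The direct comparison of the compounds gave 19 of 49 probe sets higher with SB590885 than with PD325901 and 0 lower, against 1.23% and 0.555% of all probe sets (limma, adjusted p under 0.05). They stand for 18 genes, and by class for 2 of 7 in H1, 5 of 10 in H2A, 10 of 15 in H2B, 1 of 8 in H3 and 1 of 9 in H4. The groups did not overlap for 25 probe sets, against 4.04% of all, and with the replicate block 27 were higher, against 8.83% of all. The median difference was 0.30. H2BC12L differed by 2.44 (SE 0.21, 5.42-fold, adjusted p = 0.000277), H2BC12 by 2.41 (SE 0.18, 5.33-fold, adjusted p = 0.000135), H2AC6 by 2.25 (SE 0.22, 4.77-fold, adjusted p = 0.000476) and H1-2 by 1.43 (SE 0.17, 2.7-fold, adjusted p = 0.00179). H2BC21, which was higher than with DMSO, did not pass here (difference 0.70, adjusted p = 0.112, and 0.00177 with the replicate block), nor did H3C1 (0.13, adjusted p = 0.171). H2BC17 passed here with 0.37 (adjusted p = 0.0378). Of the probe sets of several histone genes 12 of 20 were higher with SB590885. The comparisons share the SB590885 arrays, and doses and times are unknown, so the difference belongs to the treatments as applied.

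The size of the rise differed between the arrays with and without the R mark. Averaged over the 49 probe sets, expression lay between 7.46 and 7.51 on the DMSO arrays and between 7.44 and 7.51 on the PD325901 arrays. On the SB590885 arrays it was 8.21, 8.21, 7.98 and 7.83 in replicates 1 to 4. All 4 SB590885 arrays thus lay above the others, and the 2 with the mark lay below the 2 without it. Within the arrays without the mark the median difference from DMSO was 0.40 and 29 probe sets were higher, against 5.61% of all. Within the arrays with the mark the median was 0.14 and 16 were higher, against 1.36% of all. The difference was larger without the mark for 43 of the 49.

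Single genes show the same order with different steepness. H2BC12 differed by 2.37 without the mark and by 1.95 with it, H2AC6 by 2.34 and 1.79, and H1-2 by 1.52 and 1.07. H2BC11 differed by 2.20 and 0.83, H3C2 by 1.30 and 0.29, and H4C11 by 0.58 and 0.02. A test of the difference between the sets, added after the data were seen, passed for H2BC11 alone among the 49 (limma interaction, adjusted p = 0.00123), against 0.011% of all probe sets. At an unadjusted p under 0.05 it met 22 of the 49, against 7.28% of all. The 3′ minus 5′ signal of the ACTB control probe sets, a measure of RNA integrity and labelling, separated the same sets: it lay between 1.65 and 1.85 on the 6 arrays without the mark and between 1.41 and 1.57 on the 6 with it. That of GAPDH overlapped, at 0.369 to 0.471 without the mark and 0.335 to 0.505 with it. What the R mark stands for is unknown, and the part of the mark or of this signal in the size of the rise was not tested beyond the values given.

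**Figure D4:**
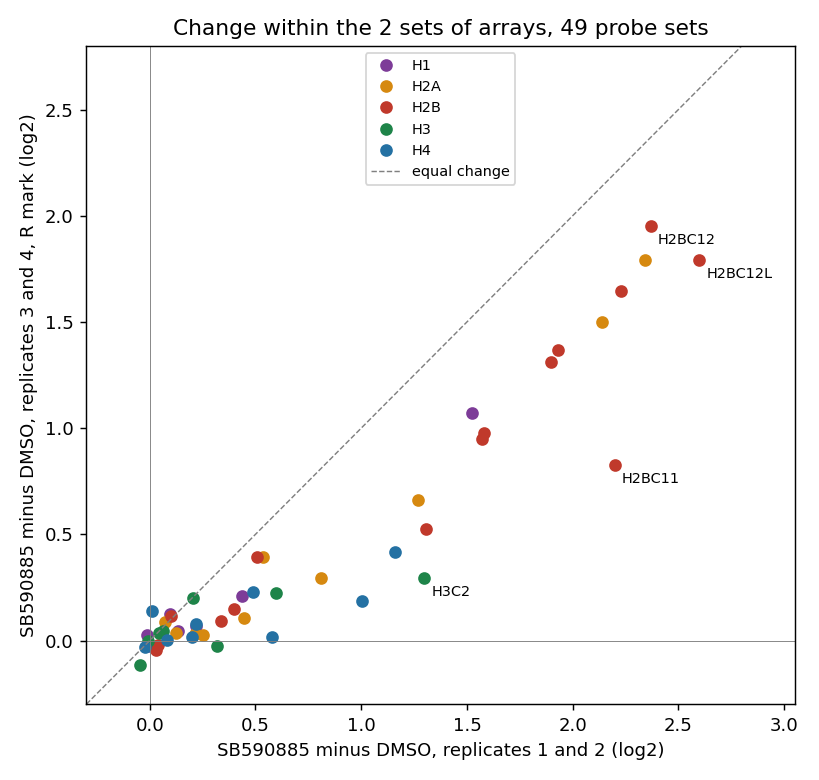
Difference between SB590885 and DMSO (log2) of the 49 cluster histone probe sets within replicates 1 and 2 (x axis) and within replicates 3 and 4, which carry the R mark (y axis), coloured by class, with the line of equal change. Most points lie below the line, as for H2BC11 with 2.20 and 0.83, and the large differences are positive in both sets.

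How many genes that make or handle histone mRNA passed depended on the replicate block, which was added for these lists after the data were seen. The lists read each gene by its brightest probe set. Over such probe sets of all 19775 genes, 1.36% were higher and 1.47% lower with SB590885 than with DMSO, 0.0809% and 0.475% with PD325901 than with DMSO, and 1.73% and 0.789% with SB590885 than with PD325901 (limma, adjusted p under 0.05). With the replicate block these shares were 8.58% and 9.28%, 1.63% and 5.44%, and 11.8% and 5.34%. An unadjusted p under 0.05, without the block, was reached by 14.1%, 7.28% and 13.5%. The counts of each list are read against these shares.

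Of 14 measured transcription factors of histone genes, 0 passed in any of the 3 limma comparisons without the block, and 2, 0 and 3 had an unadjusted p under 0.05 in the order above. With the block 2 were higher and 2 lower with SB590885 than with DMSO, 0 passed with PD325901, and 5 were higher and 2 lower with SB590885 than with PD325901. NPAT differed by 0.11 between SB590885 and DMSO (adjusted p = 0.948, and 0.225 with the block) and by 0.26 between SB590885 and PD325901 (adjusted p = 0.726, and 0.00333 with the block).

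Of 20 genes of histone mRNA 3′ end processing 0 passed in any limma comparison without the block (4, 4 and 3 unadjusted). With the block 0 were higher and 5 lower with SB590885, 0 higher and 4 lower with PD325901, and 4 higher and 1 lower between the compounds. SLBP differed by -0.04 with SB590885 (adjusted p = 0.987, and 0.812 with the block) and by -0.29 with PD325901 (adjusted p = 0.974, and 0.00984 with the block).

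The list of 11 histone mRNA decay genes held 0 calls in each limma comparison without the block (2, 0 and 0 unadjusted). With the block it held 1 higher and 1 lower with SB590885, 0 with PD325901 and 1 higher between the compounds. The 25 histone chaperones, which carry histones to DNA, also held 0 in each limma comparison without the block (3, 7 and 6 unadjusted). With it 2 were higher and 3 lower with SB590885, 4 lower with PD325901, and 6 higher with SB590885 than with PD325901. Of 14 polyadenylation genes 0 passed against DMSO without the block (limma; 2 and 1 unadjusted), and CPSF4, a subunit of the cleavage complex, was higher with SB590885 than with PD325901 by 0.29 (adjusted p = 0.0122; 3 unadjusted). With the block 1 was lower with SB590885, 3 were lower with PD325901, and 6 were higher with SB590885 than with PD325901.

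Of the genes of DNA replication and S phase, few passed without the block and more with it. Without the block, 1 of 32 rose with SB590885, the thymidine kinase TK1, by 0.24 (adjusted p = 0.0358), and 2 fell: cyclin E1, CCNE1, with a difference of -0.53 (adjusted p = 0.0206) and the phosphatase CDC25A with -0.21 (adjusted p = 0.0451). With PD325901, CCNE1 alone fell, with -0.90 (adjusted p = 0.00175). Between the compounds TK1 and the polymerase gene POLE were higher with SB590885, by 0.24 (adjusted p = 0.0334) and 0.28 (adjusted p = 0.0198). An unadjusted p under 0.05 was reached by 9, 10 and 12 of the 32. With the replicate block 4 were higher and 4 lower with SB590885, 0 higher and 13 lower with PD325901, and 17 higher and 0 lower with SB590885 than with PD325901. The median differences were 0.02, -0.15 and 0.19, against 0.00, -0.00 and 0.00 over all genes. Among the 17, named after their values were seen, were the sliding clamp PCNA, with 0.33 (adjusted p = 0.527, and 0.000201 with the block), and the ribonucleotide reductase subunit RRM2, with 0.54 (adjusted p = 0.0865, and 9.3e-05 with the block).

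Of 11 genes of cell cycle exit, CCNG2, an atypical cyclin of arrested cells, was higher with SB590885 by 1.29 (adjusted p = 0.0178) than with DMSO and by 1.07 than with PD325901 (adjusted p = 0.0418). With the block 6 were higher and 1 lower with SB590885, 3 higher and 2 lower with PD325901, and 5 higher and 1 lower between the compounds. The share of cells in S phase was not measured here, and its part in the histone values was not tested.

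Variant histones, which are made outside S phase from polyadenylated mRNA, give a neighbouring family for comparison. Of 13 measured, 2 rose with SB590885 and 0 fell: the linker variant H1-10, from 8.93 ± 0.25 to 10.57 ± 0.27 (SD, n = 4 each; adjusted p = 0.00061), and H2AJ, from 9.37 ± 0.05 to 9.86 ± 0.04 (adjusted p = 0.000273). With PD325901 0 of 13 passed (limma, 1 at an unadjusted p under 0.05). H2AX, the damage-linked H2A variant whose gene also gives a stem-loop mRNA, was higher with SB590885 than with PD325901 by 0.50 (adjusted p = 0.0222), beside H1-10 and H2AJ. With the block 4 of 13 were higher with SB590885 than with DMSO, 0 passed with PD325901, and 4 were higher with SB590885 than with PD325901. Of 20 histone deacetylases and acetyltransferases, HDAC5 (0.28, adjusted p = 0.0252) and KAT5 (0.26, adjusted p = 0.0326) rose and HDAC4 (-0.44, adjusted p = 0.0499) fell with SB590885. HDAC4 also fell with PD325901 (-0.68, adjusted p = 0.0116), and KAT5 was higher with SB590885 than with PD325901 by 0.25 (adjusted p = 0.0424). With the block 7 of the 20 were higher and 5 lower with SB590885, 1 higher and 5 lower with PD325901, and 9 higher and 2 lower between the compounds.

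In the promoter table, which covers 40 of the 43 genes, the shared elements were counted by class and by response. Over windows from 250 bases before to 50 after the start, searched on both strands, the octamer ATTTGCAT occurs in 40.6% of 64 cluster histone promoters against 1.8% of all 27305 promoters, TATAAA in 65.6% against 12%, CCAAT in 84.4% against 35.7% and AAACACA in 14.1% against 5.76%. By class the octamer is in 14 of 18 H2B and 11 of 16 H2A promoters, 1 of 11 of H3 and 0 of H4 or H1. The windows of genes that stand head to head overlap, so 1 octamer can be counted for both, as for H2BC4 and H2AC6. The H3 promoter with the octamer, that of H3C4, has the same start here as that of H2AC7, so the class counts are not of separate sites. AAACACA is in 6 of 6 H1 promoters. Among measured genes the octamer is in 11 of 18 that were higher with SB590885 and 5 of 22 that were not. Within H2B these numbers are 7 of 8 and 3 of 5, and within H2A 4 of 5 and 2 of 3. Genes that were higher and genes that were not can share an octamer in these windows. H2AC14 shares its octamer with H2BC14, and H2AC17 with H2BC17, so these promoters are not independent. A match describes letters and not binding.

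Histone genes of the cluster often stand head to head, with starts under 1000 bases apart. In 5 such pairs both genes were measured. H2BC4 and H2AC6, with starts 246 bases apart, both rose, and the H2AC6 window printed above lies between their starts. In 3 pairs 1 gene passed: H2BC9 but not H3C7 (979 bases), H2AC14 but not H2BC14 (245 bases) and H2AC17 but not H2BC17 (240 bases). In the pair of H2AC15 and H2BC15 (194 bases) neither did.

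Over the whole data set, plasma cell markers were high in all groups, with 10 of 10 at or above the median of all values and mean levels of 11.01 to 11.96 per array. Markers of T and NK cells, monocytes, fibroblasts and granulocytes or erythroid cells had list means between 6.63 and 7.52, and 1 of them passed with SB590885, CD8A, which fell with a difference of -0.33 (adjusted p = 0.0347). XBP1 (-0.62, adjusted p = 0.0406) and SDC1 (-0.55, adjusted p = 0.0499), which mark plasma cells, also fell with SB590885, and 4 of the 10 plasma cell markers were lower with the replicate block. Of 10 genes that ERK signalling induces, 3 fell with SB590885 and 5 with PD325901, among them DUSP6 with -0.97 and -2.64, and 4 were higher with SB590885 than with PD325901. By treatment the 3′ minus 5′ signal of ACTB was 1.58 ± 0.17 with DMSO, 1.65 ± 0.17 with SB590885 and 1.64 ± 0.10 with PD325901, and that of GAPDH was 0.371 ± 0.033 with DMSO, 0.440 ± 0.035 with SB590885 and 0.425 ± 0.057 with PD325901 (SD, n = 4 each), and the part of either in the histone values was not tested.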

How the data were processed

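The deposited values are log2 expression per probe set of 12 Affymetrix HG-U133 Plus 2.0 arrays, which the authors made with RMA in R 3.0.1, per the submitters' processing notes, from 100 ng of total RNA labelled with the IVT Express kit, per the labels' protocols. The sources used here do not say whether all arrays were normalised in 1 run. Of 54675 probe sets, 62 controls were left out; of the rest, 41091 are paired with a single gene, 1801 with more than 1 and 11721 with no symbol. Symbols were updated through gene identifiers of the RefSeq table. Array medians lay between 6.88 and 6.97 and the lowest values between 5.85 and 6.01, and the number of arrays limits the precision.

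The test was limma 3.58.1 (R 4.3.3) with 1 mean per group, fitted to the 54613 probe sets on the 12 arrays together, moderated without trend, and adjusted by Benjamini-Hochberg within each comparison, with a threshold of 0.05. No filter on low values was applied, so all 49 members were tested. Adjusted p-values come from this fit, values after ± are SD over 4 arrays, and the spread behind every p is that between arrays. The members, the lists and the markers were chosen with earlier results of these data known. Values are given in full for up to 12 called members without overlap per comparison and for the member of the highest mean in each class; H3C2, H4C8, H2BC13 and others named with fewer values were picked after their values were seen. The script was checked on simulated data.

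To check pairing, each array's deviation from its group mean was correlated with those in other groups: r was 0.522 to 0.869 for a shared replicate number (12 pairs), 0.242 to 0.611 for another number under the same R mark and -0.682 to -0.476 across marks. The group means span both marks, so a difference between the marks alone makes r negative across marks and positive within them. Under the same mark, r tended to be higher for a shared number, but the ranges overlapped. The replicate numbers were treated as pairs in the block, which also takes up differences between the marks. Promoter sequences come from RefSeq on GRCh38.p14; no build is named for the array annotation used. Alternatives covered normalisation, filtering, probe set choice, the replicate block, the R mark and leaving out each array.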

Additional observations from a re-analysis of the deposited data

Results flagged for a closer look

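Among 42 groups of 4 arrays looked at, from 14 probe sets, 2 held an array far from the other 3, and chance alone sets apart about 1 in 20 such groups. H2BC5, read by 209911_x_at, was lowest in SB590885 replicate 4, at 8.86, when the other 3 arrays lay between 9.92 and 10.13. H4C11 was highest in DMSO replicate 3, at 8.81, when the others lay between 8.55 and 8.59.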

How the results depend on the processing

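Over the 20 alternatives that keep every probe set apart, 475 repeats of the calls of the 12 largest members against DMSO and against PD325901 kept direction and side of the threshold, 5 lost the call and 0 changed sign. The 5 were all of H2BC11 against DMSO. With PD325901 the counts against DMSO were 0 in both directions under every alternative run. Against DMSO, 20 members were higher with SB590885, 26 with the replicate block and 11 among probe sets ending in _at; leaving out 1 array gave 12 to 21. Against PD325901 the count of 19 became 27 with the replicate block and 11 among those ending in _at. The replicate block also moved all probe sets higher against DMSO from 552 to 3583. The median of 0.27 against DMSO was 0.40 without the R mark, 0.14 with it, 0.51 with low values left out and 0.14 for those ending in _at. The median of 0.30 against PD325901 was 0.45, 0.17, 0.49 and 0.14 in the same order, 0.24 after quantile normalisation, and 0.20 to 0.38 leaving out 1 array. Only 35 probe sets end in _at, and the share that passed also fell, from 20 of 49 to 11 of 35; the cause of these changes was not tested. Among the gene lists the block, added for them after the data were seen, moved those of DNA replication and S phase from 2 to 17 higher with SB590885 than with PD325901 and from 1 to 13 lower with PD325901 than with DMSO. Dim probe sets, 16 of them below the median of all values, limit what small differences can show.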
